A study of Mus musculus with 8 samples.

Results

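A set of 9 genes of the complement system was followed across the 8 arrays of the series: C1qa, C1qb, C1qc, C3, C4b, Cfb, Serping1, C3ar1 and C5ar1. They were found by their gene name on the array, which gave 13 of the 56605 probes and 9 of the 25883 genes that entered the fits. All 9 passed the filter on low signal. The RNA came from C57Bl/6J mice, with astrocyte as the source and spinal cord as the tissue, and the sources used here do not give the method of cell isolation. A group had 1 array. The groups were Cx47-deficient naive (title icKO_naive), WT naive (FL_naive), Cx47-deficient EAE, WT EAE, Cx47-deficient EAE with iguratimod, WT EAE with iguratimod (spelled iguratiomod in the labels), Cx47-deficient chronic EAE and WT chronic EAE (titles with EAE p50). EAE stands for experimental autoimmune encephalomyelitis, an inflammatory disease of the central nervous system used in mice to model multiple sclerosis, and iguratimod is an anti-inflammatory drug. Oligodendrocytes use Cx47 in their gap junctions, and the series title describes its deletion as conditional and specific to oligodendroglia. The driver of the deletion, the ages and the number of animals per array were not given in the sources used here. Titles of the WT mice read FL or F/F, and the wild type label was used for them.

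Complement is a cascade of plasma and tissue proteins that tags targets and recruits immune cells. C1qa, C1qb and C1qc encode the chains of C1q, which starts the classical pathway and which microglia make in the central nervous system. C3 and C4b encode the proteins that are cleaved and fixed to surfaces, Cfb encodes the protease of the alternative pathway convertase, Serping1 encodes the C1 inhibitor, and C3ar1 and C5ar1 encode receptors for the small fragments released from C3 and C5.

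Probes of 5 of the genes are shown first, because a probe is the only stretch of a transcript that the array reads. Their positions are those of the mm9 build as the files give them, all on the minus strand, 5′ to 3′. The 2 Cfb probes are printed because their ranges differ, and the C4b probe because the files list C4a for it as well.
C1qa probe, chr4:136452409-136452468: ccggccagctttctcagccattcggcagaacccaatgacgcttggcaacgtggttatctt
C1qb probe, chr4:136436578-136436637: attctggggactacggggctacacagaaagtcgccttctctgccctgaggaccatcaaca
C3, dimmer probe, chr17:57343678-57343737: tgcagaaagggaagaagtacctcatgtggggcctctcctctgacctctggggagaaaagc
C4b and C4a probe, chr17:34866361-34866420: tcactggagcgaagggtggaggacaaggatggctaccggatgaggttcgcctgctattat
Cfb, brighter probe, chr17:34993502-34993858: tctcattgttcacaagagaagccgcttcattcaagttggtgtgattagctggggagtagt
Cfb, dimmer probe, chr17:34994617-34994676: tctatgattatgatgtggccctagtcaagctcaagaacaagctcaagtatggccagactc
The brighter Cfb probe has 60 bases and spans 357 bases of the chromosome. The probe used for each gene in the fits was its brightest. For C4b that was another probe, for which only C4b is listed.

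RefSeq start site windows on GRCm38.p6 were at hand for 5 of the 9 genes, C1qb, C1qc, C3, C3ar1 and C5ar1. They were searched on both strands, from 250 bases before the start to 50 bases after it, for the letters TTCNNNGAA (GAS), GAAANNGAAA (ISRE core), GGAANNGAAA (ETS-IRF composite), GGGANTTTCC (kB), GAGGAANT (PU.1) and TTGCNNAA (C/EBP). The ISRE and ETS-IRF letters can overlap. There were 2 matches, which are in capitals below in the 250 bases before the start. C1qc held the PU.1 letters on the opposite strand, and 7.44% of 32851 windows hold them on either strand, and C3 held the C/EBP letters, which 10.8% of windows hold. GAS letters were in 8.3% of windows, ISRE core in 3.44%, ETS-IRF in 2.72% and kB in 0.411%. These matches describe the letters only.
C1qc, chr4:136892915-136893164: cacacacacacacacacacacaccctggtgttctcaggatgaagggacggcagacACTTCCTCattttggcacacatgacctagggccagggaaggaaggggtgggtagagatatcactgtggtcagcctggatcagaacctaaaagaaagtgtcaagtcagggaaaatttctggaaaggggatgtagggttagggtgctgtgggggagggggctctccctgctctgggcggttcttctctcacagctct
C3, chr17:57228137-57228386: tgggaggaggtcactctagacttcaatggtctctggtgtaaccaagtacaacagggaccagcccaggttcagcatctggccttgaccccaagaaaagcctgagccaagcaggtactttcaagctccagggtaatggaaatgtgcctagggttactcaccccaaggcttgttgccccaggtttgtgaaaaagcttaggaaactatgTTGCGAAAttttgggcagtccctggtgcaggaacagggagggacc

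Levels are given as log2 of the signal minus the array's 75th percentile, so that 0 is the signal at that percentile of the array. Levels of different probes are not comparable with each other. A spot counts as measured where the scanner software flagged it well above background, which held for 59.7% to 72.0% of spots on an array. The 2 chronic EAE arrays shared slide 2 and the other 6 slide 1, with a median local background of 57 and 58 on slide 2 and 73 to 82 on slide 1, so slide and chronic EAE cannot be told apart. The scanner software's fit to spike-in controls had an R squared of 0.848 (WT) and 0.846 (Cx47-deficient) on the chronic arrays. On slide 1 it was 0.964 to 0.988. Spots well above background were 72.0% (WT) and 71.3% (Cx47-deficient) on the chronic arrays and 59.7% to 65.8% on slide 1. Summed signals of the 11 astrocyte markers were 212.8 to 412.4 times the 75th percentile. Markers of other cells were present too: the sums were 245.3 to 333.3 over 8 neuron markers, 99.6 to 358.5 over 8 oligodendrocyte markers and 64.0 to 97.0 over 8 microglia markers. In RNA of this kind, fewer cells of a type and less RNA per cell cannot be told apart.

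C1q transcripts had higher levels in EAE than in naive mice of both genotypes and stood below the naive level in chronic EAE. In Cx47-deficient mice C1qa stood at 1.85 in naive, 3.88 in EAE, 3.84 under iguratimod and 1.43 in chronic EAE. In WT mice it stood at 1.92, 3.41, 2.55 and 1.29 in the same conditions. The genotypes lay within 0.08 of each other in naive mice (-0.40 with median centring), and the WT array with iguratimod stood between the WT naive and WT EAE arrays. C1qb stood at 1.45, 3.43, 3.32 and 0.70 in Cx47-deficient mice and at 1.52, 2.97, 2.20 and 0.54 in WT mice, in the same order of conditions. C1qc stood at 2.59, 4.49, 4.49 and 2.24 in Cx47-deficient mice and at 2.65, 4.09, 3.27 and 2.06 in WT mice. The 3 chains ordered the arrays alike: both EAE arrays and the Cx47-deficient iguratimod array were high, and both chronic arrays were lowest. A second C1qc probe was not well above background on any of the 8 arrays and gave no measurement.

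C3, the central protein of the cascade, covered a wider range. It stood at -1.06 in naive, 3.40 in EAE, 2.55 under iguratimod and -0.03 in chronic EAE of Cx47-deficient mice, and at -1.21, 2.34, 1.30 and -0.91 in WT mice. The Cx47-deficient array was the higher of each pair, except that median centring put the naive pair at -0.18. C4b stood at -0.26, 3.76, 3.65 and 1.67 in Cx47-deficient mice and at 0.17, 3.50, 2.33 and 0.78 in WT mice. Here the Cx47-deficient array was the lower of the naive pair, and of the EAE pair with median centring (-0.10). Cfb, the alternative pathway protease, was not well above background on either naive array. It stood at 0.93 in EAE, 0.40 under iguratimod and -4.93 in chronic EAE of Cx47-deficient mice, and at -0.35, -1.16 and -4.39 in WT mice. Cfb thus covered the widest range of the 9 genes, and its chronic arrays were near the lowest signals that count as measured (-5.80 and -5.82).

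Serping1 encodes the inhibitor of C1r and C1s. It stood at -1.37, 0.72, -0.11 and -0.75 in Cx47-deficient mice, and at -1.82, 0.01, -0.56 and -1.79 in WT mice, from naive through EAE and iguratimod to chronic EAE. Its WT chronic array was back near the WT naive level, while the Cx47-deficient chronic array stayed above its naive level. Of the receptors, C3ar1 stood at -3.97, -2.75, -3.22 and -3.95 in Cx47-deficient mice and at -4.39, -3.70, -4.58 and -3.77 in WT mice. Its range over the arrays, 1.83, was the narrowest of the 9. C5ar1 was well above background on 4 arrays: at -3.96 in EAE, -4.65 under iguratimod and -5.65 in chronic EAE of Cx47-deficient mice, and at -4.67 in WT EAE. It gave only a bound on both naive arrays and on the WT iguratimod and WT chronic arrays.

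**Figure D1:**
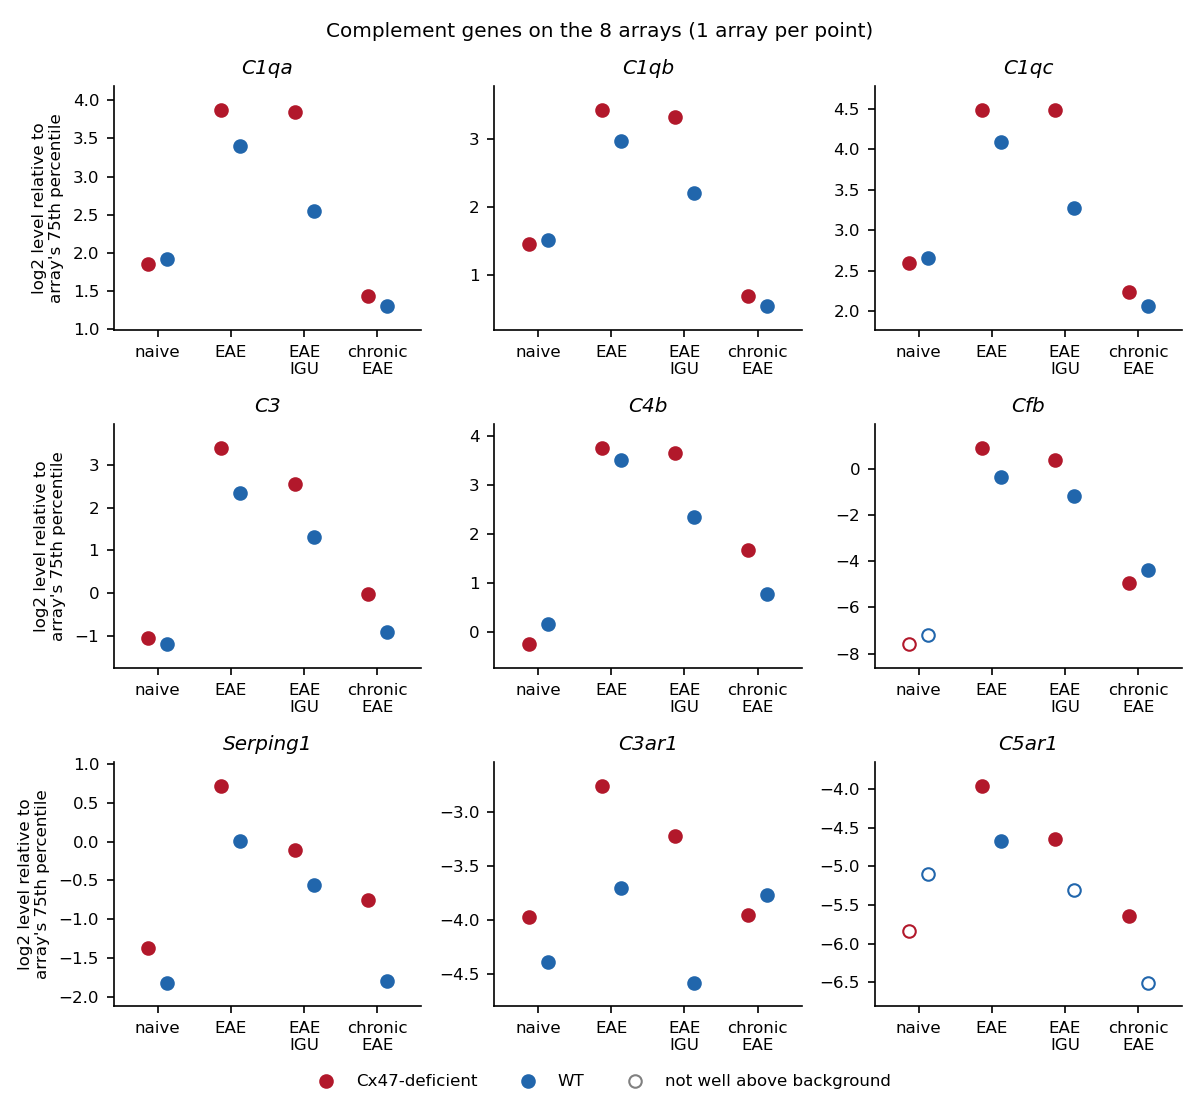
Level of each of the 9 complement genes (y axis, log2 signal relative to the array's 75th percentile) in naive, EAE, EAE with iguratimod (EAE IGU) and chronic EAE (x axis), 1 point per array, red for Cx47-deficient and blue for WT. Open points were not well above background; C1qa, C1qb and C1qc show the same pattern, and the Cx47-deficient EAE array is the highest of the 8 in every panel.

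The first question was which complement genes differed in EAE from naive mice. Condition and genotype were fitted together with limma over all 8 arrays, and genes with a p under 0.05 after Benjamini-Hochberg adjustment count as called. The error in this model comes from the unequal genotype differences of the 4 conditions, may be technical, and says nothing of the spread between animals, which the labels do not mention. C3 and Cfb were called higher in EAE, 2 of the 9 genes, where 0.251% of all 25883 genes were called (64 higher and 1 lower). C3 averaged 2.87 ± 0.75 in EAE and -1.13 ± 0.11 in naive mice (SD, n = 2 each), a difference of 4.0 ± 0.30 (SE), which is 16.0-fold, with a limma adjusted p of 0.0366. Cfb averaged 0.29 ± 0.90 in EAE against a signal not well above background in naive mice (measured mean -7.41 ± 0.28, SD, n = 2 each), at least 47.2-fold higher, with a limma adjusted p of 0.0385. Such bounds set the mean of the measured arrays against the lowest signal that counts as measured on the dim arrays. Both calls were lost without any 1 of the 8 arrays: then the limma adjusted p was 0.0556 to 0.33 for C3 and 0.0642 to 0.33 for Cfb, with fitted differences of 3.55 to 4.46 for C3 and 7.12 to 8.28 for Cfb (measured signals, dim in naive mice). Under normexp correction the Cfb difference was 3.55 on the log2 scale, which is less than the Cfb bound of 5.56, so that bound did not hold there. The C3 call was also lost under quantile normalization and with the authors' values (limma adjusted p 0.0503 each), with no filter on dim probes (0.0544) and on slide 1 alone (0.117), and the Cfb call with no filter (0.058) and on slide 1 alone (0.0955).

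The other 7 genes were also above 0 in this comparison and did not pass the test. C4b differed by 3.68 ± 0.44 (SE), with EAE arrays at 3.63 ± 0.18 and naive arrays at -0.05 ± 0.30 (SD, n = 2 each) and a limma adjusted p of 0.0618. Serping1 differed by 1.96 ± 0.21, with a limma adjusted p of 0.054. Both of these passed under normexp background correction, under median centring and when only probes measured on all 8 arrays were kept, with limma adjusted p of 0.014 to 0.0259 for C4b and 0.0155 to 0.0295 for Serping1. Over all alternatives the adjusted p ran up to 0.406 for C4b and 0.381 for Serping1. The C1q chains differed by 1.76 ± 0.36 (C1qa), 1.71 ± 0.32 (C1qb) and 1.67 ± 0.34 (C1qc), with limma adjusted p of 0.182, 0.146 and 0.175. C3ar1 differed by 0.95 ± 0.39 (limma adjusted p 0.746), and by 0.26 under normexp correction. C5ar1 was at least 1.94-fold higher in EAE (limma adjusted p 0.639), and its measured signals differed by 0.089 under normexp correction. The median of the 9 was 1.76, beside -0.06 over all genes tested.

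Within each genotype the same comparison sets 1 array against 1 array and has no test. In Cx47-deficient mice 9 of 9 genes were 2-fold or more higher in EAE than in naive mice, where 5.08% of genes were. Under normexp correction it was 7 of 9, without C3ar1 (0.50) and C5ar1 (0.30). In WT mice 7 of 9 were, where 3.35% of genes were, and the exceptions were C3ar1 (0.69 on the log2 scale, 0.019 under normexp) and C5ar1 (at least 1.32-fold, -0.12 under normexp). For the 7 genes measured on the naive arrays the difference was larger in Cx47-deficient than in WT mice, by 0.26 (Serping1) to 0.91 (C3), and stayed larger under normexp, quantile normalization and median centring, with the authors' values and with the mean of probes. Cfb and C5ar1 gave only bounds here and were not ranked. Over all genes too, the share 2-fold or more higher in EAE was larger in Cx47-deficient (5.08%) than in WT mice (3.35%). Whether the genotypes differ in their response was not testable with 1 array in each group.

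Summed myeloid markers moved with these genes. The 10 monocyte and macrophage markers summed to 93.0 and 42.5 times the 75th percentile in Cx47-deficient and WT EAE, against 3.04 and 4.61 in Cx47-deficient and WT naive mice. All 10 were above 0 and 2 were called, Plac8 and Ms4a6c. The 10 pan-myeloid markers summed to 164.5 and 126.2 in Cx47-deficient and WT EAE, against 56.8 and 53.5 in Cx47-deficient and WT naive mice, and 9 of 10 were above 0 with 0 called. The 8 T and NK cell markers summed to 4.68 and 3.66 in Cx47-deficient and WT EAE, against 1.22 and 2.13 in Cx47-deficient and WT naive mice, and all 8 were above 0 with 0 called. The 8 microglia markers summed to 81.8 and 74.1 in Cx47-deficient and WT EAE, against 74.0 and 76.0 in Cx47-deficient and WT naive mice, with 5 of 8 above 0. The 7 neutrophil markers summed to 12.8 and 8.05 in Cx47-deficient and WT EAE, against 1.15 and 1.37 in Cx47-deficient and WT naive mice, with 7 of 7 above 0 and S100a9 called. The 8 endothelial markers summed to 21.9 and 21.0 in Cx47-deficient and WT EAE, against 1.67 and 4.27 in Cx47-deficient and WT naive mice, with 8 of 8 above 0 and 0 called. The 8 fibroblast and pericyte markers summed to 5.85 and 5.97 in Cx47-deficient and WT EAE, against 3.28 and 3.76 in Cx47-deficient and WT naive mice. Of these, 8 of 8 were above 0 and 0 were called. Above 0 were also 7 of 11 astrocyte, 3 of 8 neuron and 0 of 8 oligodendrocyte markers, with 0 called. The astrocyte median was 0.03 and the oligodendrocyte median -0.66. Of all the cell markers, 10 were not well above background on either naive array: Cd2, Cd3d, Cd3g, Gzmb and Nkg7 of T and NK cells, Plac8 and F10 of monocytes and macrophages, Spi1 of the pan-myeloid list, Ngp of neutrophils and Mzb1 of plasma cells. The part of these cells in the complement differences was not tested.

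**Figure D2:**
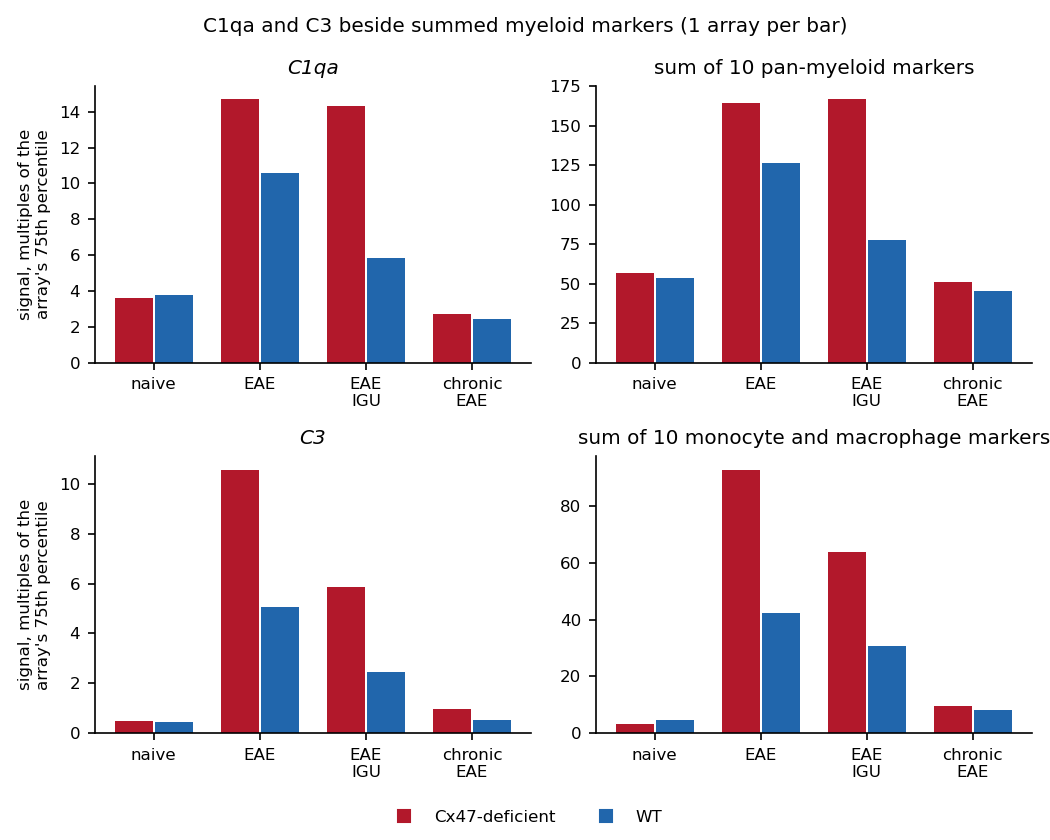
C1qa and C3 (left) beside the summed signal of 10 pan-myeloid and of 10 monocyte and macrophage markers (right), y axis in multiples of the array's 75th percentile on a linear scale starting at 0, 1 bar per array, red for Cx47-deficient and blue for WT, by condition. With iguratimod the pan-myeloid sum is 166.7 in Cx47-deficient and 77.5 in WT mice, and C1qa shows the same order.

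**Figure D3:**
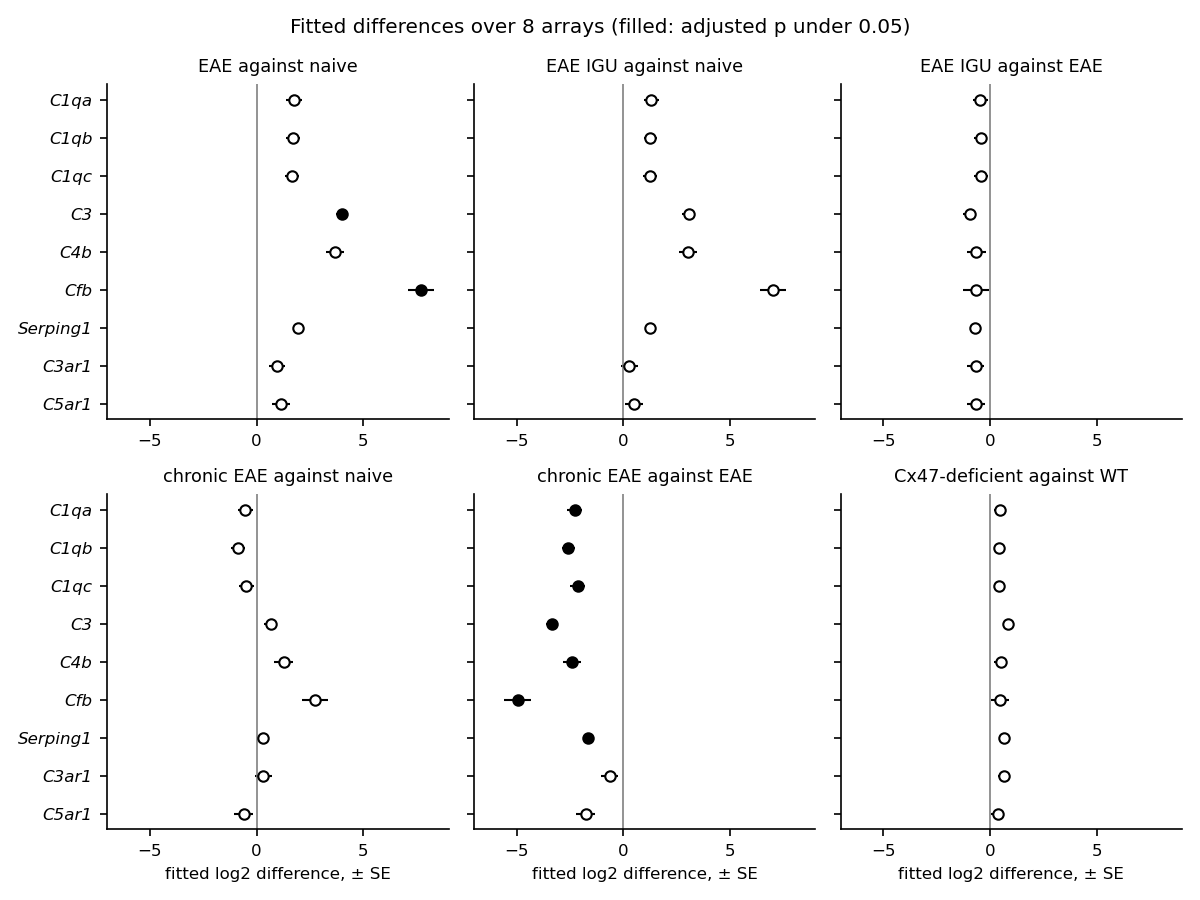
Fitted log2 difference of each complement gene in 6 comparisons (x axis, with bars of 1 SE; panel titles give the group on top first, and IGU stands for iguratimod). Filled points passed the limma adjusted p under 0.05: C3 and Cfb in EAE against naive, and 7 of the 9 genes in chronic EAE against EAE.

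The iguratimod arrays were set against both naive and untreated EAE. Against naive mice 0 of the 9 genes were called, where 0.00386% of all genes were (1 gene), and 9 of 9 differences were above 0 with a median of 1.28 against -0.05 over all genes. With no adjustment, 7 of the 9 had a limma p under 0.05, against 7.47% of all genes. C3 stood 3.06 ± 0.30 higher (limma adjusted p 0.082), C4b 3.04 ± 0.44 (0.125) and Cfb at least 29.6-fold (0.068). Under normexp correction Cfb differed by 2.94 on the log2 scale, which is less than that bound (4.89). C3ar1 differed by 0.28 ± 0.39, with overlapping groups, and by -0.20 without the Cx47-deficient iguratimod array. Median centring called C3, C4b and Cfb here, normexp correction and the filter on all 8 arrays called C3, and no other setting called a member.

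Against untreated EAE all 9 differences were below 0 and 0 were called, as were 0% of all genes. At an unadjusted p under 0.05 limma gave 2 of the 9 genes and 2.11% of all genes. These were C3, at 1.92 ± 0.88 with iguratimod and 2.87 ± 0.75 without (difference -0.95 ± 0.30 SE, unadjusted limma p 0.0244, adjusted 1), and Serping1, at -0.34 ± 0.31 with iguratimod and 0.37 ± 0.50 without (difference -0.70 ± 0.21 SE, unadjusted limma p 0.0212, adjusted 1; SD, n = 2 each). The other 7 ran from -0.67 (C3ar1) to -0.41 (C1qc), with a median over the 9 of -0.66 and a median over all genes of -0.01. Without the WT iguratimod array the differences of C1qa, C1qb, C1qc and Cfb turned to 0.11, 0.032, 0.11 and 0.053.

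The differences are given next for each genotype, 1 array against 1 array and untested. In Cx47-deficient mice the log2 difference was -0.037 for C1qa, -0.10 for C1qb and -0.0012 for C1qc, and with median centring these turned to 0.19, 0.12 and 0.22. In WT mice it was -0.86, -0.77 and -0.82 for the same chains. C4b differed by -0.11 in Cx47-deficient mice (0.11 with median centring) and by -1.17 in WT mice. C3 differed by -0.85 in Cx47-deficient and by -1.04 in WT mice, and Serping1 by -0.83 in Cx47-deficient and by -0.57 in WT mice. Under the rule of 2-fold or more, 0 of 9 genes were lower with iguratimod in Cx47-deficient mice, where 3.53% of genes were, and 2 of 9 in WT mice (C3 and C4b), where 1.22% of genes were. The pan-myeloid sum was 166.7 with iguratimod and 164.5 without in Cx47-deficient mice and 77.5 with and 126.2 without in WT mice. The monocyte and macrophage sum was 63.9 with and 93.0 without in Cx47-deficient mice and 30.6 with and 42.5 without in WT mice. The neutrophil sum was 5.42 with and 12.8 without in Cx47-deficient mice and 7.7 with and 8.05 without in WT mice. The endothelial sum was 12.5 with and 21.9 without in Cx47-deficient mice and 15.4 with and 21.0 without in WT mice. In the fit all 10 pan-myeloid, 10 monocyte and macrophage, 7 neutrophil and 8 endothelial markers were below 0 and 0 were called. All 8 T and NK cell, 5 B and plasma cell and 8 fibroblast and pericyte markers were below 0 as well, with 0 called. Below 0 were also 6 of 8 microglia, 6 of 11 astrocyte, 3 of 8 neuron and 2 of 8 oligodendrocyte markers. The part of these cells in the complement values was not tested.

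Chronic EAE was compared with EAE and with naive mice. Against EAE 7 of the 9 genes were called, all lower in chronic EAE, where 14.5% of all genes were called (2347 higher and 1406 lower, or 62.5% higher). That share was 39.8% to 66.9% under other settings of signal, scaling, filter and probes. C3 fell by 3.34 ± 0.30 (SE) on the log2 scale, to -0.47 ± 0.62 in chronic EAE against 2.87 ± 0.75 in EAE (SD, n = 2 each; limma adjusted p 0.0279). Cfb fell by 4.96 ± 0.61, which is 31.0-fold (limma adjusted p 0.0325), and the difference was -3.37 under normexp correction. C1qa, C1qb and C1qc fell by 2.28 ± 0.36, 2.58 ± 0.32 and 2.14 ± 0.34 (limma adjusted p 0.0386, 0.0325 and 0.0386). C4b fell by 2.41 ± 0.44 (limma adjusted p 0.041) and Serping1 fell by 1.64 ± 0.21 (0.0333). C3ar1 differed by -0.63 ± 0.39 (limma adjusted p 0.274), and its WT arrays by -0.065. The measured signals of C5ar1, dim on the WT chronic array, differed by -1.76 ± 0.43 (limma adjusted p 0.0526), and by -0.53 under normexp correction.

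All 7 calls were lost without the WT EAE array, without the Cx47-deficient EAE array or without the WT chronic array, with limma adjusted p of 0.0784 to 0.241. Without the Cx47-deficient chronic array C3 and Serping1 were called, and without either iguratimod array C1qa, C1qb, C1qc, C3 and Cfb. C5ar1 passed as an eighth gene under normexp, quantile and median scaling, with the authors' values, with the mean of probes, and without either naive array, with limma adjusted p of 0.0229 to 0.0498. Without any filter on dim probes only C1qb, C3, Cfb and Serping1 were called. Since slide and chronic EAE cannot be told apart, no fit could hold the slide fixed. The pan-myeloid sum was 50.9 and 45.5 in Cx47-deficient and WT chronic EAE, against 164.5 and 126.2 in Cx47-deficient and WT EAE, with 7 of the 10 markers called lower and 1, Ptprc, higher. The monocyte and macrophage sum was 9.5 and 8.19 in Cx47-deficient and WT chronic EAE, against 93.0 and 42.5 in Cx47-deficient and WT EAE, with 7 of 10 called lower. The 11 astrocyte markers summed to 320.0 and 212.8 in Cx47-deficient and WT chronic EAE, against 331.4 and 378.8 in Cx47-deficient and WT EAE, with 11 of 11 below 0 and Gfap and Gja1 called. The endothelial sum was 6.21 and 3.23 in Cx47-deficient and WT chronic EAE, against 21.9 and 21.0 in Cx47-deficient and WT EAE, with 8 of 8 markers below 0 and 1 called. Also below 0 were 8 of 8 fibroblast and pericyte markers with 0 called, and 8 of 8 T and NK cell markers with 2 called. The oligodendrocyte sum was 142.1 and 99.6 in Cx47-deficient and WT chronic EAE, against 189.7 and 262.4 in Cx47-deficient and WT EAE, with 8 of 8 below 0 and 3 called. The microglia sum was 84.9 and 97.0 in Cx47-deficient and WT chronic EAE, against 81.8 and 74.1 in Cx47-deficient and WT EAE, with 7 of 8 below 0 and 0 called. The part of any of these cells was not tested.

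On single arrays, 9 of 9 genes were 2-fold or more lower in chronic EAE than in EAE in Cx47-deficient mice, where 5.59% of genes were, and 8 of 9 in WT mice, where 12.6% of genes were. Under normexp correction it was 7 of 9 in both genotypes, without C3ar1 and C5ar1. Against naive mice the fit called 0 of the 9, where 0.947% of all genes were called (183 higher and 62 lower, or 74.7% higher, a share of 41.7% to 84% under the other settings). Limma gave 3 of the 9 genes at an unadjusted p under 0.05, C1qb, C4b and Cfb, and 32.6% of all genes. The genes did not share a direction. C1qb differed by -0.86 ± 0.32 (limma adjusted p 0.139), C1qa by -0.52 ± 0.36 (0.343) and C1qc by -0.47 ± 0.34 (0.355). C4b differed by 1.27 ± 0.44 (limma adjusted p 0.126) and C3 by 0.66 ± 0.30 (0.193), and Cfb was at least 1.52-fold higher (0.076). That bound did not hold under normexp correction, where Cfb differed by 0.18 on the log2 scale. The dimmer Cfb probe was not well above background in chronic EAE or naive mice, and its signals differed by -0.053. C3ar1 differed by 0.32 ± 0.39 (limma adjusted p 0.588) and turned below 0 under 4 scalings, and C5ar1 gave no bound above 1. Serping1 differed by 0.32 ± 0.21 with overlapping groups and turned to -0.057 with median centring. On single arrays 2 of 9 genes, C3 and C4b, were 2-fold or more higher than naive in Cx47-deficient mice, where 8.55% of genes were. In WT mice 0 of 8 were, where 16.6% of genes were. The dimmer C3 probe stood at -0.89 in chronic EAE and at -1.18 in naive Cx47-deficient mice, short of 2-fold.

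The effect of Cx47 deficiency was asked over the 4 matched pairs of arrays. All 9 fitted differences were above 0 and 0 were called, as were 0% of all genes, and limma gave 2 of the 9 genes and 4.42% of all genes at an unadjusted p under 0.05. C3 was 0.83 ± 0.21 (SE) higher in Cx47-deficient mice (unadjusted limma p 0.0105, adjusted 0.83) and Serping1 0.66 ± 0.15 (unadjusted limma p 0.00699, adjusted 0.83), and both were higher in 4 of 4 pairs, although C3 in the naive pair turned to -0.18 with median centring. The other 7 lay between 0.37 (C5ar1, -0.014 under normexp correction) and 0.64 (C3ar1). The median was 0.48 over the 9 genes and 0.00 over all genes.

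The pairs differed from each other. In naive mice 0 of 7 measured genes were 2-fold or more higher in the Cx47-deficient array, where 8.07% of genes were, and the C1q chains differed by -0.06 to -0.08 (C1qc by 0.07 under quantile normalization, and C1qa, C1qb and C1qc by -0.40, -0.40 and -0.39 with median centring). In EAE 2 of 9 were, C3 (1.06) and Cfb (1.28), where 6.71% of genes were, and with median centring neither reached 2-fold. The dimmer C3 probe, at 2.16 in Cx47-deficient and 1.33 in WT EAE, did not reach 2-fold under the main scaling. With iguratimod 7 of 9 were, where 2.6% of genes were: C1qa (1.29), C1qb (1.12), C1qc (1.22), C3 (1.24), C4b (1.31), Cfb (1.56) and C3ar1 (1.37). Serping1 (0.44) and C5ar1 (at least 1.57-fold) were the exceptions. That C5ar1 bound did not hold under normexp correction, where C5ar1 differed by 0.046 on the log2 scale. In chronic EAE 1 of 9 was, Serping1 (1.04), where 1.63% of genes were, and none reached 2-fold under normexp correction. The count in the iguratimod pair was 6 to 7 under the other settings, and C3ar1, a dim probe, dropped out with normexp correction (0.46). These pairs have 1 array on each side. In the iguratimod pair, 2 arrays on the same slide, the pan-myeloid sum was 166.7 in Cx47-deficient and 77.5 in WT mice. The monocyte and macrophage sum (63.9 and 30.6) and the T and NK cell sum (4.57 and 2.14) were also higher in the Cx47-deficient array. Among the sums lower there were those of neutrophil (5.42 and 7.7), endothelial (12.5 and 15.4) and choroid plexus markers (10.6 and 38.3). The part of these cells in the genotype differences was not tested.

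**Figure D4:**
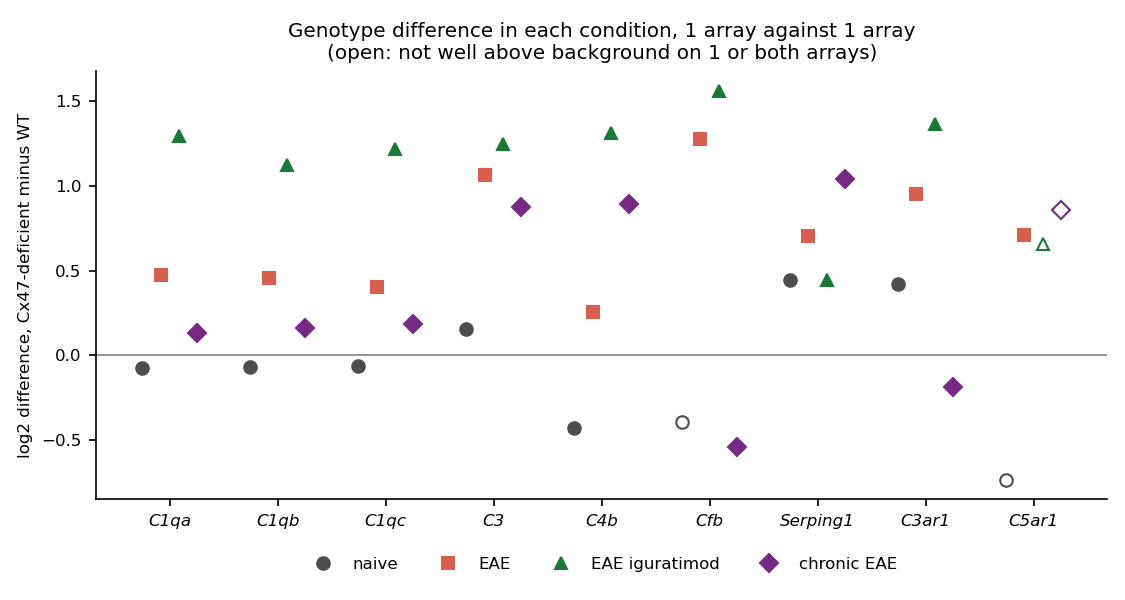
Log2 difference between the Cx47-deficient and the WT array (y axis) for each of the 9 complement genes in the 4 conditions (symbols), 1 array against 1 array. The iguratimod pair is highest for 7 genes, the naive pair lies within 0.08 of 0 for the 3 C1q chains, and open symbols mark genes not well above background on 1 or both arrays.

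Genes with more than 1 usable probe gave the same direction in EAE against naive mice, with sizes that differed for C3 and Cfb. The 2 C3 probes correlated with r = 0.99 over the 8 arrays, and the dimmer one gave a difference of 2.96 for EAE against naive mice where the brighter gave 4.0. For chronic EAE against naive mice the dimmer C3 probe gave 0.27 and the brighter 0.66. For genotype they gave 0.56 and 0.83 in the same order. The 2 C4b probes correlated with r = 0.993 and gave 3.69 and 3.68, although C4a is listed for one of them, so C4a and C4b cannot be fully told apart. The 2 Cfb probes correlated with r = 0.948, and the dimmer one was well above background only on the 2 EAE and 2 iguratimod arrays. For chronic EAE against naive mice its dim signals differed by -0.053. The brighter Cfb probe, dim in naive mice only, gave 2.74 there.

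The 9 genes were also described by how alike they ran over the 8 arrays. C1qa and C1qc correlated with r = 0.9998 and C1qa and C1qb with r = 0.993, while C3ar1 correlated with the other 8 at r = 0.554 to 0.672. Among 5938 other genes measured on at least 6 arrays, the closest to C1qa and C1qc were Fcer1g (r = 0.998 and 0.999), a signalling chain of Fc receptors, and Ctsz (0.997 and 0.997), a lysosomal cathepsin. The closest to C1qb were Hcls1 (r = 0.998) and Plcg2 (r = 0.995), both signalling proteins of blood cells. C3 was closest to H2-T10 and Trim21 (r = 0.995 each), C4b to Slamf8 (0.992) and the interferon-inducible Ifi204 (0.991), and Cfb, measured on 6 of the 8 arrays, to the MHC class II gene H2-Eb1 and the monocyte chemokine Ccl2 (0.996 each). Serping1 was closest to P2ry14 (r = 0.98) and F13a1 (0.972), C3ar1 to Dennd1c (0.984) and Ccr9 (0.948), and C5ar1, measured on only 4 of the 8 arrays, to Slc7a2 (0.981) and Tifa (0.978). These are correlations over 8 arrays of 4 conditions that share slides and scaling, and they describe these arrays only.

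Of the other complement genes, 33 passed the filter on low signal. In EAE against naive mice 1 of the 33 was called, where 0.251% of all genes were: C1s1, a protease of the C1 complex, at least 6.36-fold higher (limma adjusted p 0.0472), with 20 of 33 above 0 and a median of 0.17. Under normexp correction C1s1 differed by 1.26 on the log2 scale, which is less than that bound. Among those not called were Itgax, a chain of complement receptor CR4, with the largest bound of the 33 (at least 25.5-fold, limma adjusted p 0.0532), C4a (3.5, 0.0618), C1s2 (at least 5.91-fold, 0.0618) and C1ra (2.31, 0.107). C1s1 and C1s2 are close copies and may share signal. With iguratimod against naive, with iguratimod against EAE, in chronic EAE against naive and for genotype 0 of the 33 were called. In chronic EAE against EAE 12 of the 33 were called, where 14.5% of all genes were, 8 lower and 4 higher, of which 11 are named here. Lower were C1s1 (-1.64), C1s2 (-1.65), C2 (-1.68), C4a (-3.58), Cfhr2 (-1.04), Itgax (-2.69) and the shared integrin chain Itgb2 (-2.18). Higher were Masp2 (2.07), a protease of the lectin pathway, the membrane regulator Cd46 (0.92), the receptor Cr2 (1.00) and Itgam (0.71), the partner of Itgb2 in complement receptor CR3. These 11 kept their sign under normexp, quantile normalization and median centring, with the authors' values and with the mean of probes.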

How the data were processed

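RNA was measured on 8 single-colour Agilent arrays. The deposited scanner files give spot intensity and background intensity with flags of 0 or 1 in other columns. Per the file headers they came from Feature Extraction 10.7.1.1, and the processed signal had background and spatial trend removed. The submitters' processing notes give 9.5.1.1, and which holds was not settled. The authors' deposited table holds linear intensity of single arrays that its values show to be quantile normalized (median 50.2 in each column), and served as an alternative. All its columns matched a sample. The number of arrays limits the precision.

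From the processed signal, log2 was taken and the 75th percentile of the array subtracted. Outlier spots (38 to 73 per array) were dropped and replicate spots averaged. Probes had to be well above background on 2 or more arrays, and the brightest stood for its gene. Names came from the RefSeq gene table by accession (32982 of 56605 probes), symbol (10223) or synonym (520), and 12867 probes kept the file's name. Fits used limma 3.58.1 in R 4.3.3 (3 residual degrees of freedom), tested on simulated data. In single-array counts dim values were raised to the lowest signal that counted as measured. The named genes were the 9 members, other complement genes that were called or else the 4 with the largest difference, the 2 genes most like each member (SD at least 0.5) and the marker genes needed beside a result. Values of 2 genes are not reported here. Members, lists and rule were chosen with earlier results of these data known.

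Alternatives were normexp background correction (offset 50), quantile normalization, median centring, the authors' values, no filter, a filter on all 8 arrays, the mean of probes, leaving out each array, and slide 1 alone.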

Additional observations from a re-analysis of the deposited data

Results flagged for a closer look

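Groups of 1 array allow no test of a sample that stands apart. The results below are differences between single arrays whose sign was opposite in the 2 groups or conditions compared, and none of these differences was tested. Genes not well above background on both arrays of a pair were left out.

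C3ar1 with iguratimod against naive stood at 0.76 in Cx47-deficient and at -0.19 in WT mice on the log2 scale, a gap of 0.95. For the other genes it was the genotype difference, Cx47-deficient minus WT, that changed sign between conditions. Between the iguratimod pair and the naive pair it differed by 1.37 for C1qa (1.29 and -0.08), by 1.19 for C1qb (1.12 and -0.07), by 1.28 for C1qc (1.22 and -0.06) and by 1.74 for C4b (1.31 and -0.43). The naive values of the C1q chains were near 0. Under quantile normalization C1qc stood at 1.24 and 0.07 in these pairs, with no change of sign. Between the iguratimod pair and the chronic EAE pair it differed by 2.10 for Cfb (1.56 and -0.54) and by 1.55 for C3ar1 (1.37 and -0.18).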

How the results depend on the processing

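The number of genes called moved with most settings. In EAE against naive it was 65, against 202 under normexp, 38 under quantile normalization and with the authors' values, 358 under median centring, 15 with no filter, 201 with the filter on all 8 arrays, 0 on slide 1 alone and 0 to 11 without single arrays. With iguratimod against naive it was 1, against 51 under normexp, 0 with the authors' values, on slide 1 alone and under quantile normalization, 235 under median centring, 47 with the filter on all 8 arrays, 10 with the mean of probes and 0 to 0 without single arrays. In chronic EAE against naive it was 245, against 3892 under normexp, 19 under quantile normalization, 1208 under median centring, 12 with the authors' values, 25 with no filter, 1713 with the filter on all 8 arrays and 1 to 3 without single arrays. In chronic EAE against EAE it was 3753, against 7578 under normexp, 6941 under median centring, 847 with no filter and 1 to 2447 without single arrays. For iguratimod against EAE and for genotype it was 0 under every setting run. The cause of these moves was not tested, apart from the fewer arrays or the other number of genes that a setting itself brings.

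Signs of members turned as follows. Without single arrays the lowest and highest values were -0.20 and 0.77 for C3ar1 and -0.24 and 1.23 for C5ar1 with iguratimod against naive. With iguratimod against EAE they were -1.01 and 0.11 for C1qa, -0.91 and 0.032 for C1qb, -0.93 and 0.11 for C1qc and -1.39 and 0.053 for Cfb. In chronic EAE against naive they were -0.23 and 0.87 for C3ar1 and -1.34 and 0.13 for C5ar1. There C3ar1 also stood at -0.12 under normexp, -0.11 under quantile normalization and with the authors' values and -0.056 under median centring, and Serping1 at -0.057 under median centring. C5ar1 stood at -0.014 for genotype under normexp. Median centring put the median of all genes at -0.34 in chronic EAE against naive, -0.41 in chronic EAE against EAE and -0.18 for genotype. Of the single-array counts over measured signals, Cx47-deficient over WT was 2 in EAE, against 0 under median centring and 1 with the mean of probes, 7 with iguratimod, against 6 under normexp, and 1 in chronic EAE, against 0 under normexp. Chronic EAE over naive was 3 in Cx47-deficient mice, against 1 under normexp and 2 under median centring and with the mean of probes, and 1 in WT mice, against 0 under normexp. Under normexp the count for EAE over naive was 7 against 9 in Cx47-deficient mice, chronic EAE under EAE 7 against 9 in Cx47-deficient and 7 against 8 in WT mice, and WT iguratimod under EAE 1 against 2. The other single-array counts did not move. C3 lost its call in EAE under quantile normalization and with the authors' values (limma adjusted p 0.0503 each), with no filter (0.0544) and on slide 1 alone (0.117), and Cfb with no filter (0.058) and on slide 1 alone (0.0955). No paired analysis was possible because each group has 1 array, so no replicate numbers can be paired beyond the genotype pairs that the fit itself compares within conditions.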
